A study of Mus musculus with 27 samples.

Results

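The 9 transcription factor genes described, which pattern cranial and limb mesenchyme, were Msx1, Msx2, Zic1, Zic2, Alx1, Alx4, Dlx5, Pax3 and Pax9, measured in mouse embryonic fibroblasts and whole lung. They are 9 of the 24062 gene symbols in the deposited table of raw counts and were chosen by symbol, with earlier results of these data known, among them the comparison of Het with WT fibroblasts. All 9 symbols were found, and in the fibroblasts all 9 passed the filter on low counts, whereas in lung 3 did.

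The data were 27 bulk RNA-seq libraries, 3 in each of 9 groups, all from C57BL/6 mice. Embryonic fibroblasts, primary cells grown out of embryos, were of early passage, growing asynchronously and taken at about 90% confluence. In experiment 1 the genotype labels were WT, KO or KO-NTD. In experiment 2 they were Het or WT, each with and without NTD. The lungs came from WT and Het animals aged 10 days and were taken whole. The series is about Foxm1, a forkhead factor of dividing cells, but the genotype labels name no gene or allele, and they do not explain NTD. They also do not say whether the libraries of a group came from separate embryos or animals, so the p-values below measure the spread between libraries, which may be technical.

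Foxm1 checks the labels. Its level was 134 to 140 counts per 1000000 counts (CPM) in experiment 1 WT and 139 to 152 CPM in the libraries labelled KO, so the KO label was not matched by fewer Foxm1 counts. The libraries labelled KO-NTD, WT-NTD and Het-NTD held 293 to 406 CPM, above the 126 to 152 CPM of all fibroblast libraries without NTD, and the lungs held 17.2 to 20.4 CPM. The part of Foxm1 that the KO and Het labels alter is not given, and counts over the whole gene may include reads outside it. All 10 fibroblast markers were detected in every library, those of lung included. They summed to 30982 to 49828 CPM in the fibroblast libraries and to 10297 to 12771 CPM in the lungs. The 9 lung epithelium markers summed to 28890 to 60962 CPM in the lungs. Total counts were 30247046 to 69517834 per fibroblast library and 29730693 to 50326730 per lung library.

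Msx1, Msx2, Alx1, Alx4 and Dlx5 encode homeodomain proteins, which bind DNA and switch other genes on or off. Pax3 and Pax9 carry a paired DNA-binding domain, and Zic1 and Zic2 carry zinc fingers. The genes are active in neural crest and paraxial mesenchyme and in limb buds, where bone morphogenetic proteins (BMPs) are well-known inducers of the Msx genes, and cultured fibroblasts can keep part of the pattern of the region they came from.

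Across the 21 fibroblast libraries, Msx1 varied the most of the 9 genes and Zic1 the least. On a scale common to all libraries Msx1 ran from 0.388 to 16.7 CPM, a 43.1-fold range, and Zic1 from 11.3 to 21.6 CPM, a 1.92-fold range. The RefSeq promoter letters of these genes are shown because they stand at the ends of that range. Both are on the minus strand of GRCm38.p6, printed 5′ to 3′ up to the start of transcription or of the first annotated exon. Msx1 lies at chr5:37824586-37824835 and Zic1 at chr9:91365811-91366018.
Msx1: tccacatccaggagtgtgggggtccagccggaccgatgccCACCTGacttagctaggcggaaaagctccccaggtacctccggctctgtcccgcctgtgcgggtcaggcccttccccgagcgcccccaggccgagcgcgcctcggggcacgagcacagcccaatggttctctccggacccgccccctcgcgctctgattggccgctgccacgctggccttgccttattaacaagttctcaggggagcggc
Zic1: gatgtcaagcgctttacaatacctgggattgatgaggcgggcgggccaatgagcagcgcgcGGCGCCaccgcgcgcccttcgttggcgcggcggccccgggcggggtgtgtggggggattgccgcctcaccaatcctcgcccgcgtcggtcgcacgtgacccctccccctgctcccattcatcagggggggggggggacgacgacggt
Capitals mark matches, on either strand, to 5 motifs searched. These were the forkhead core TAAACA, the cell-cycle homology motif TTTGAA, the core of E2F sites written as GGCGCC, the TATA box searched for as TATAAA and an E-box with the letters CACCTG. The Msx1 stretch holds 1 CACCTG, found in 17.2% of 32841 mouse promoters of 250 bases, and the Zic1 stretch holds 1 GGCGCC, found in 9.59% of them. Of the other motifs, TAAACA occurs in 12% of promoters, TTTGAA in 16% and TATAAA in 12.4%. G and C make up 68% of the 250 Msx1 bases and 71.2% of the 208 Zic1 bases, against a median of 52.4% over all promoters. The ratio of observed to expected CpG is 0.704 for Msx1 and 0.992 for Zic1. Of the 9 genes, 4 had an entry in the promoter table: these, Msx2 and Pax9. A match describes the letters and does not show binding.

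Msx1 is a homeodomain repressor of the cranial mesenchyme, tooth bud and limb tip. It lies at chr5:37820485-37824583 (GRCm38, GENCODE M21, minus strand) and has 2 exons. In experiment 2 the WT libraries held 3.03, 15.9 and 6.60 CPM, and the Het libraries held 0.710, 0.375 and 0.390 CPM. The WT-NTD libraries held 1.14, 7.56 and 4.33 CPM, and the Het-NTD libraries held 0.751, 0.596 and 0.408 CPM. Every Het and Het-NTD library thus lay below every WT and WT-NTD library, with 14 to 32 Msx1 counts each.

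In experiment 1, Msx1 was spread widely within the groups. The WT libraries held 7.53, 4.32 and 10.9 CPM, the KO libraries 0.507, 8.96 and 15.7 CPM, and the KO-NTD libraries 1.48, 0.600 and 5.23 CPM. KO replicate 1, with 25 counts, was as low as the Het libraries, while the other KO libraries were as high as WT. All 3 groups overlapped, and the KO libraries differed among themselves 31.0-fold.

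Msx2, a close relative of Msx1 active in the skull vault and limb bud, lies at chr13:53466884-53473074 (minus strand, 2 exons). The experiment 1 WT libraries held 9.30, 10.4 and 7.57 CPM, the KO libraries 3.29, 3.67 and 4.70 CPM, and the KO-NTD libraries 2.64, 1.73 and 1.80 CPM. Those groups formed 3 steps that did not overlap. In experiment 2 the WT libraries held 1.97, 4.54 and 5.12 CPM and the Het libraries 1.87, 2.35 and 1.75 CPM, which overlapped because WT replicate 1 was low. The WT-NTD libraries held 2.55, 3.54 and 2.26 CPM, all above the 1.41, 1.32 and 1.68 CPM of Het-NTD.

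Alx4 is an aristaless-type homeodomain factor of the skull, skin mesenchyme and anterior limb bud, at chr2:93642384-93681339 (plus strand). Its experiment 2 WT libraries held 18.9, 24.1 and 18.6 CPM and its Het libraries 5.82, 7.30 and 7.65 CPM. Its WT-NTD libraries held 12.8, 19.2 and 14.7 CPM and its Het-NTD libraries 8.22, 8.35 and 6.39 CPM. As for Msx1, all Het and Het-NTD libraries lay below all WT and WT-NTD libraries. In experiment 1 Alx4 was 18.0, 22.6 and 21.8 CPM in WT, 6.41, 15.9 and 16.9 CPM in KO, and 11.8, 6.92 and 12.4 CPM in KO-NTD. WT lay above both other groups, and KO replicate 1 was again the lowest of its group.

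Alx1, which is needed for the midface skeleton, lies at chr10:102998707-103030215 (minus strand) and stayed between 0.237 and 1.44 CPM in all fibroblast libraries. Its group means ran from 0.430 ± 0.168 CPM (SD, n = 3) in Het to 1.04 ± 0.501 CPM (SD, n = 3) in experiment 2 WT. Alx1 shares 243 exon bases with Gm17028 on the same strand, a gene that is not among the symbols counted. Dlx5, a distal-less factor of the lower jaw and of bone-forming cells, lies at chr6:6877805-6882085 (minus strand). It was 0.184, 4.16 and 1.51 CPM in experiment 2 WT and 0.264, 1.36 and 2.71 CPM in KO, so that single libraries of these groups sat near the 0.128 to 0.258 CPM of Het-NTD. The lowest WT library held 7 Dlx5 counts and the highest held 162.

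Zic2 is a zinc finger factor of the early forebrain and neural tube, at chr14:122475435-122479852 (plus strand, 3 exons). It was 9.40, 7.49 and 5.94 CPM in experiment 1 WT, 2.43, 3.28 and 4.25 CPM in KO, and 1.29, 1.48 and 1.23 CPM in KO-NTD. As for Msx2, these 3 groups did not overlap. In experiment 2 all 4 groups overlapped, at 0.403 to 2.50 CPM. Zic1, which acts in the dorsal neural tube and the skull sutures, lies at chr9:91358058-91365810 (minus strand) and shares 60 exon bases with Zic4 on the other strand. Its group means in fibroblasts ran only from 12.2 ± 1.7 CPM (SD, n = 3) in KO-NTD to 17.2 ± 2.5 CPM (SD, n = 3) in experiment 1 WT.

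Pax3, a master regulator of neural crest and muscle precursors, lies at chr1:78101267-78197134 (minus strand, 9 exons) and was low. It was 0.0415, 0.718 and 0.447 CPM in experiment 1 WT, 0.750, 0.981 and 1.34 CPM in KO, and 0.155, 0.321 and 0.178 CPM in KO-NTD. KO stood above both other groups, on 37 to 75 counts per KO library and 2 to 43 per WT library. Pax9, which acts in vertebrae, palate and teeth, lies at chr12:56691767-56712822 (plus strand) and shares 189 exon bases with Slc25a21 on the other strand. It was 0.768, 1.12 and 0.915 CPM in experiment 1 WT and 1.42, 1.68 and 2.18 CPM in KO, which did not overlap. The library kit does not mark strand, so reads of overlapping genes cannot be told apart.

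Msx2, Zic1, Zic2, Alx1, Alx4 and Pax3 had lower means in both lung groups than in any fibroblast group, whereas Msx1, Dlx5 and Pax9 did not. Msx1 was 1.32, 2.42 and 1.74 CPM in WT lung and 0.766, 1.75 and 2.01 CPM in Het lung, Alx4 was 0.537 to 1.32 CPM, and Msx2, Zic2 and Alx1 reached at most 0.272 CPM in any library. Zic1 had 4 counts in the WT lungs together and 0 in the Het lungs, which allows up to 0.0240 CPM over the group at 3 counts. Pax3 had 0 counts in the WT lungs, which allows up to 0.0279 CPM, and 2 counts in the Het lungs. Such limits cover counting error only. Dlx5 was 0.244, 0.151 and 0.450 CPM in WT lung and 0.0666, 0.327 and 0.0383 CPM in Het lung, on 2 to 15 counts each, which reached the range of Het-NTD. Pax9 was at 0.269, 5.08 and 1.86 CPM in WT lung and 1.33, 0.794 and 0.881 CPM in Het lung, a range that spanned that of the fibroblasts. In bulk tissue or cultures, fewer cells of a type and less RNA per cell cannot be told apart.

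**Figure D1:**
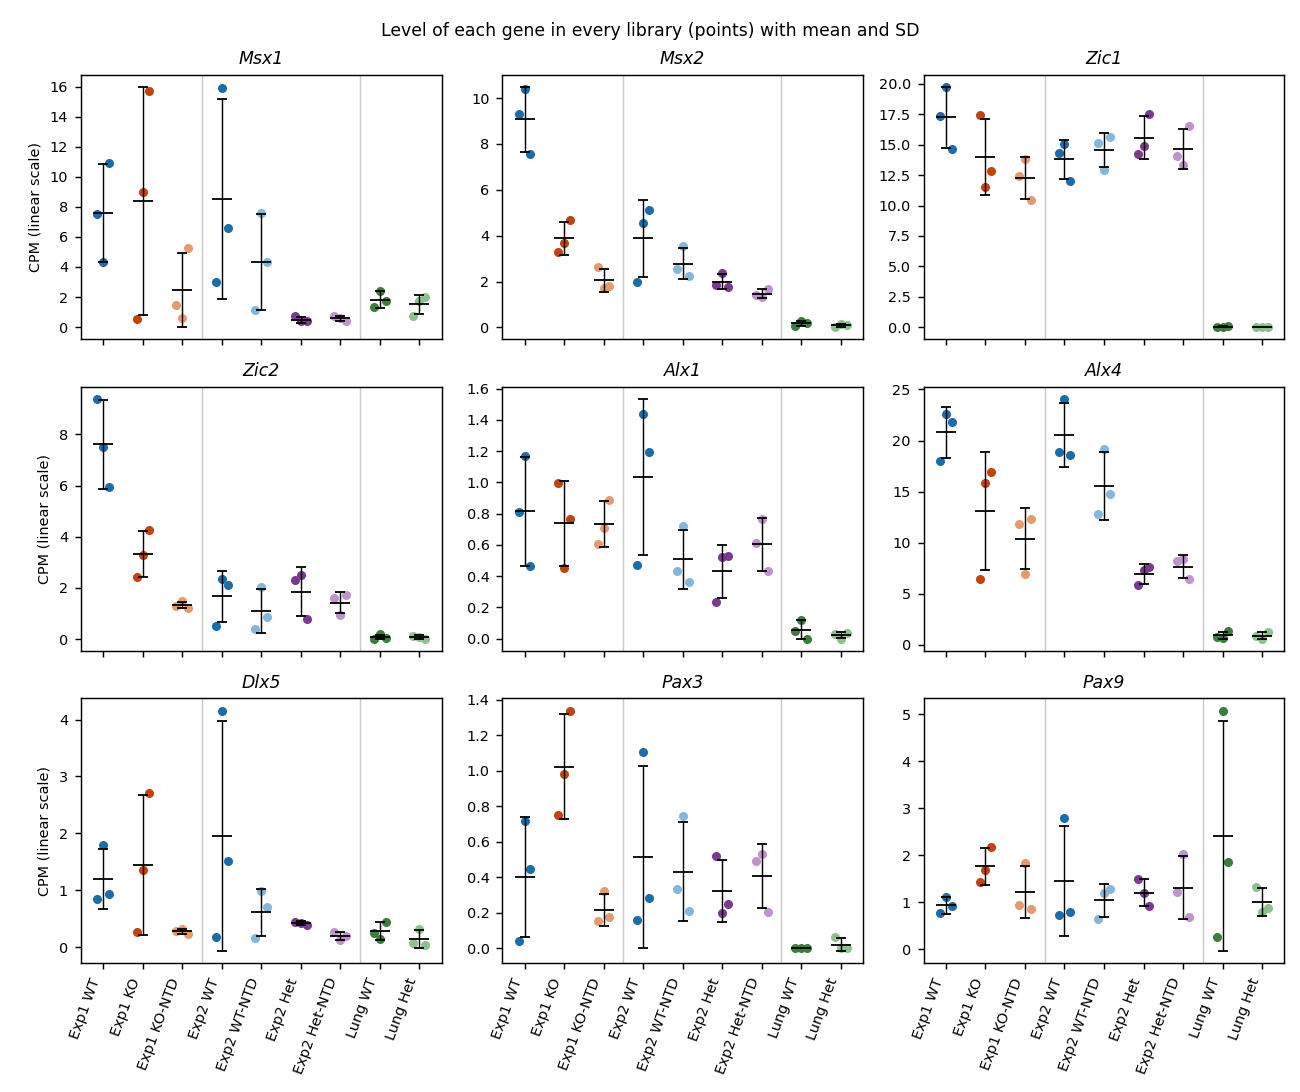
Level of each of the 9 genes in CPM (linear scale, scaled within experiment 1, experiment 2 and lung separately) in every library. Points are libraries, and the bar and whiskers are the mean and SD of the 3 libraries of a group. Msx1 and Alx4 were low in all Het and Het-NTD libraries, Msx2 and Zic2 stepped down from WT over KO to KO-NTD, and Zic1 stayed between 10.4 and 19.7 CPM in fibroblasts.

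Per kb of exon, the scale on which genes can be compared, Zic1 was the most even at a group mean of 2.15 to 3.03 CPM per kb in the fibroblasts. Alx4 (0.981 to 2.95), Msx1 (0.159 to 2.75), Msx2 (0.448 to 2.77) and Zic2 (0.383 to 2.64 CPM per kb) reached similar levels in their highest group. Dlx5 reached 0.862, Pax9 0.348, Alx1 0.180 and Pax3 0.165 CPM per kb. The spread between replicates also differed: the median coefficient of variation over the 7 fibroblast groups was 11.7% for Zic1, 15.1% for Alx4 and 18.8% for Msx2, and 73.9% for Msx1. Ranked by mean, most neighbouring groups overlapped. For Msx1 the single step of 8 that did not overlap was Lung Het above Het-NTD, where the scales were set apart for lung and fibroblasts, and on the scale common to all 27 libraries that step overlapped too. For Alx4 it was Het above Lung WT. For Msx2, experiment 1 WT stood above KO, Het above Het-NTD, and Het-NTD above Lung WT.

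The comparison of Het with WT in experiment 2 was in view when the genes were chosen, so its values are a description, and nothing is read from its counts. The fitted log2 fold change was -4.09 (SE 0.80) for Msx1, from a mean of 8.51 to 0.492 CPM, and -1.57 (SE 0.17) for Alx4, from 20.5 to 6.93 CPM. Those for Dlx5 (-2.20), Alx1 (-1.27) and Msx2 (-0.96) were below 0 with overlapping groups. The choice of the genes bears on how many of the 9 passed the threshold in this comparison, which was 2, against 16.5% of all genes (8.61% lower). The groups of 2 did not overlap, with Het below, against 33.9% of all genes (16.8% lower). The comparisons of Het-NTD with Het and of WT-NTD with WT use the same libraries, and their counts too are only a description. In the former, 0 of 9 passed, against 0.014% of all genes. The groups of 2, Msx2 and Dlx5, did not overlap, against 16.3% (8.15% lower), and Msx1 stood at 0.24 (SE 0.91) and Alx4 at 0.15 (SE 0.17). In the latter, 0 of 9 passed, against 0.014% of all genes, and the groups of 0 stood apart, against 9.33%, with Msx1 at -0.95 (SE 0.66), Alx4 at -0.40 (SE 0.17) and Dlx5 at -1.62 (SE 0.81).

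The comparison of Het-NTD with WT-NTD asks whether the Het label goes with a difference in other libraries, all of which carry the NTD label. It is not shown to be independent of the choice of the genes, which was made with earlier results of these data known. The same fit also covers Het and WT, and whether their libraries share cultures or embryos with these is not known. Msx1 and Alx4 fell in Het-NTD and Zic1 did not pass the test. Msx1 was 7.45-fold lower, at a mean of 0.585 ± 0.172 CPM against 4.34 ± 3.21 CPM (SD, n = 3 each), a log2 fold change of -2.90 (SE 0.78, 95% interval -4.64 to -1.16, edgeR adjusted p = 0.0409). Alx4 was 2.04-fold lower, at 7.65 ± 1.09 against 15.6 ± 3.3 CPM (SD, n = 3 each), a log2 fold change of -1.03 (SE 0.17, edgeR adjusted p = 0.00291). Both were lower in 3 of 3 Het-NTD libraries than in any WT-NTD library. Of the 9 genes, 2 fell and 0 rose, against 11.5% of all genes called in either direction and 6.24% lower, and the median log2 fold change was -0.10 against 0.00 over all genes.

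Msx2 stood at -0.93 (SE 0.32) with groups that did not overlap but missed the threshold (edgeR adjusted p = 0.0818). It passed with DESeq2 (adjusted p = 0.0403) and with edgeR in a fit of these 2 groups alone (adjusted p = 0.0326), and in none of the other 10 alternatives. In all, 3 of 9 genes had groups apart, all with Het-NTD below, against 32.1% of all genes (15.8% lower). The share is near the background. Zic1 was level, with a log2 fold change of 0.01 and a 95% interval of -0.25 to 0.27. The intervals of Zic2 (-1.11 to 1.77), Alx1 (-0.80 to 1.26), Pax3 (-1.63 to 1.42), Pax9 (-0.84 to 1.51) and Dlx5 (-3.80 to 0.44) were wide and held 0. The Alx4 call held in all 12 alternatives of the processing, with adjusted p from 3.51e-07 to 0.0148. The Msx1 call was lost without Het-NTD replicate 1 (adjusted p = 0.108), 2 (0.131) or 3 (0.126), without WT-NTD replicate 2 (0.132) or 3 (0.0873), without a filter on low counts (0.0758) and in a fit of these 2 groups alone (0.0524), all by edgeR, while its log2 fold change stayed between -3.34 and -2.22.

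Macrophage genes moved the same way in this comparison. Of 11 macrophage markers, 10 fell in Het-NTD and the median log2 fold change was -3.02, with summed levels of 66.3 to 156 CPM in WT-NTD and 11.6 to 16.7 CPM in Het-NTD, and none at 0. Of 6 mesothelial markers, 4 fell and 1, Wt1, rose, with summed levels of 47.6 to 55.3 and 25.3 to 34.8 CPM. Of 6 skeletal muscle markers tested, 2 rose, Myh3 and Actc1. All 11 summed to 56.0 to 69.90 CPM in WT-NTD and 70.05 to 96.6 CPM in Het-NTD, so the groups were only just apart. Of 4 endothelial markers tested, 2 fell, Kdr and Emcn, and 1 rose, Cdh5, with summed levels of 5.61 to 8.86 and 4.17 to 5.07 CPM. The lower Msx1 and Alx4 levels stood beside these differences, whose part in the result was not tested.

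The KO libraries were compared with WT in experiment 1, which shares no library with experiment 2. The comparisons in experiment 1 and in lung are likewise not shown to be independent of the choice of the genes. By edgeR 0 of 9 genes passed, against 0.447% of all genes. DESeq2 called 2 of the 9, Msx2 and Zic2, where it called 449 genes in all, against 65 by edgeR. An unadjusted edgeR p under 0.05 was reached by 3 of the 9. The share of all genes at that p was not taken, so nothing is read from this count. Msx2 was at 3.88 ± 0.73 CPM in KO against 9.08 ± 1.42 CPM in WT (SD, n = 3 each), a log2 difference of -1.23 (SE 0.21, edgeR adjusted p = 0.0651 and DESeq2 adjusted p = 1.08e-05). Zic2 was at 3.32 ± 0.91 against 7.61 ± 1.73 CPM (SD, n = 3 each), a log2 difference of -1.19 (SE 0.24, edgeR adjusted p = 0.0857 and DESeq2 adjusted p = 0.000304). All 3 KO libraries were below all WT libraries for both genes. The groups of 5 of 9 genes did not overlap, against 17.3% of all genes (8.87% lower): Msx2, Zic2 and Alx4 with KO below, and Pax3 and Pax9 with KO above.

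Msx1 stood at 0.15 (SE 1.04) in KO against WT, with a 95% interval of -2.24 to 2.54, which overlaps that of Het-NTD against WT-NTD. Alx4 stood at -0.67 (SE 0.36, edgeR adjusted p = 0.51), Pax3 at 1.33 (SE 0.71, adjusted p = 0.51) and Pax9 at 0.91 (SE 0.34, adjusted p = 0.334). Whether the KO and Het differences differ was not tested. Chondrocyte markers differed between these groups in their sum, and most of their counts were Col2a1. The 8 genes summed to 799 to 1070 CPM in WT, 114 to 517 CPM in KO and 46.4 to 103 CPM in KO-NTD. Their mean log2 level per library overlapped, at 3.16 to 3.23 in WT and 2.24 to 3.29 in KO. Of 7 tested, 0 passed in KO against WT, with a median log2 difference of -0.37. Their part in the Msx2 and Zic2 levels was not tested. The 11 macrophage markers summed to 52.56 to 87.98 CPM in WT. In KO replicates 1, 2 and 3 they summed to 12.03, 359.9 and 244.3 CPM, and in KO-NTD to 32.06, 9.486 and 263.2 CPM. The lowest KO and KO-NTD libraries were those lowest in Msx1, but the highest KO and WT libraries were not those highest in Msx1. All 11 were tested in KO against WT and 0 passed, with a median log2 difference of 1.21. The part of macrophages in these Msx1 levels was not tested.

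KO-NTD was compared with KO, the same genotype label with and without NTD. All 9 log2 differences were below 0 with a median of -0.91, against -0.01 over all genes, although that of Alx1 (-0.0034) turned sign with DESeq2, with a replicate block and without single libraries, and that of Zic1 without KO replicate 1. By edgeR 0 of 9 passed, against 0.00687% of all genes. An unadjusted edgeR p under 0.05 was reached by 4 of the 9. The share of all genes at that p was not taken, so nothing is read from this count. DESeq2 called 1 of the 9, Zic2 (adjusted p = 0.00143), where it called 26 genes in all, against 1 by edgeR. Zic2 stood at -1.32 (SE 0.24) and Msx2 at -0.91 (SE 0.22), each with an edgeR adjusted p of 0.714, and Pax3 at -2.23 (SE 0.75) and Dlx5 at -2.39 (SE 0.73) with the same adjusted p. The groups of 3 genes did not overlap (Msx2, Zic2 and Pax3, all lower), against 11.2% of all genes (5.42% lower). This comparison shares the KO libraries with the last, so the values of the 2 stand side by side and are not independent.

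In lung, 3 of 9 genes had enough counts to be tested and 0 passed by edgeR, against 0% of all genes, with 0 at an unadjusted p under 0.05 and 0 by DESeq2. Msx1 stood at -0.26 (SE 0.42), Alx4 at -0.05 (SE 0.45) and Pax9 at -1.26 (SE 0.86) in Het against WT. The groups overlapped for all 3 genes, where 4.24% of all genes had groups apart. The 95% interval for Msx1, -1.25 to 0.73, overlapped that of Het-NTD against WT-NTD (-4.64 to -1.16) only at the ends. The difference between the tissues was not tested.

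**Figure D2:**
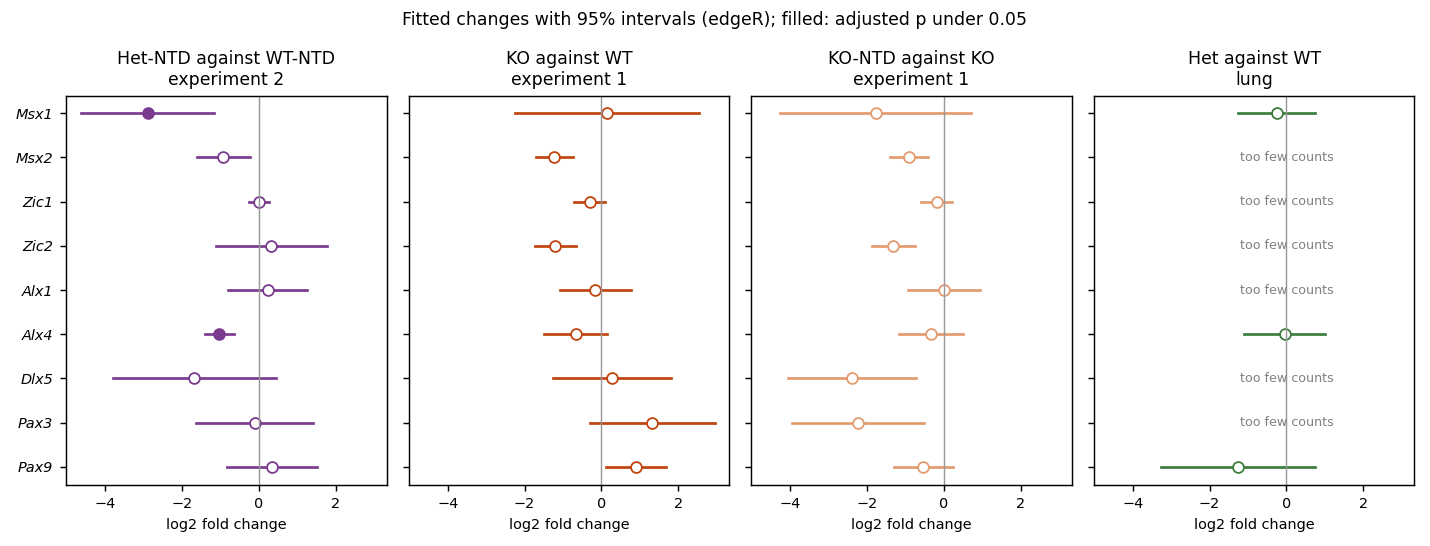
Fitted log2 fold changes (points) with 95% intervals (lines) of the 9 genes in the 4 comparisons that were tested. Filled points passed an edgeR adjusted p of 0.05: Msx1 and Alx4 in Het-NTD against WT-NTD, and none in the other 3 comparisons. All KO-NTD points lie at or left of 0.

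Over the 21 fibroblast libraries the 9 genes formed loose groups by the likeness of their log2 CPM. Libraries of a group share genotype and experiment, so each r is given overall and after the group means were subtracted, as a description. Msx1 followed Alx4 most closely among the 9, with r = 0.91 overall and 0.83 within groups, and Dlx5 next (0.77 and 0.70). Msx2 followed Zic2 (0.79 and 0.75), and Pax3 followed Pax9 (0.71 and 0.68). Zic1 went against Msx1 within groups (r = -0.71) and less so overall (-0.28).

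**Figure D3:**
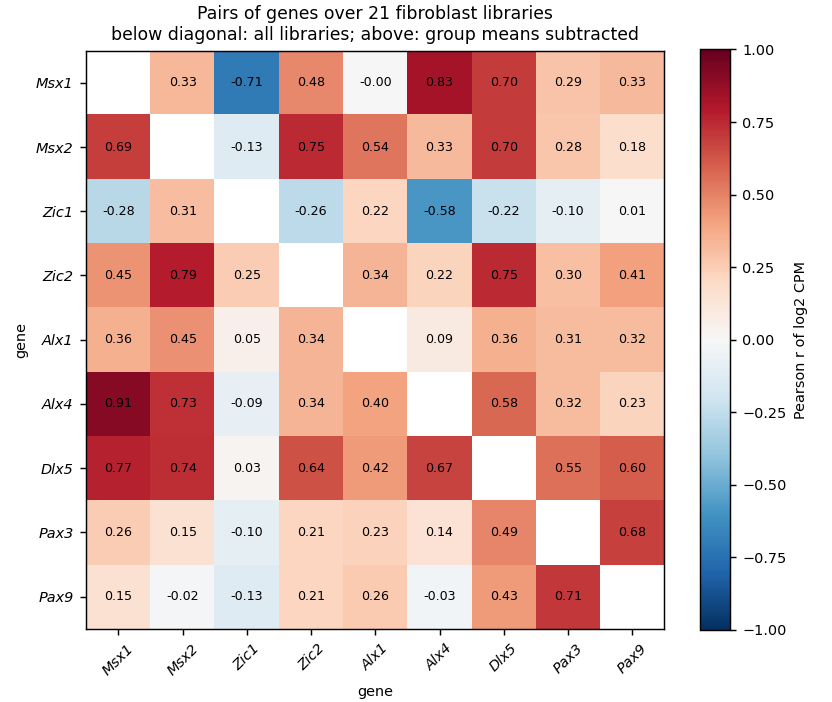
Pearson r between the log2 CPM of each pair of the 9 genes over 21 fibroblast libraries, below the diagonal over all libraries and above it after subtracting group means. The strongest pair was Msx1 with Alx4 (0.91 overall and 0.83 within groups), and Zic1 stood apart, at -0.71 with Msx1 within groups.

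Of all genes, the one most like Msx1 over the 21 libraries was Bmp4, a BMP ligand (r = 0.98 overall and 0.96 within groups), followed by Robo2 (0.97 and 0.96), a guidance receptor, and Sema3d (0.97 and 0.96), a secreted guidance cue. Bmp4 was 9.88, 46.6 and 58.3 CPM in KO and 15.2, 6.17 and 41.7 CPM in KO-NTD, with the libraries in the same order as for Msx1. It was 8.13 to 9.58 CPM in Het and 9.50 to 11.3 CPM in Het-NTD, against 33.5 to 87.1 CPM in experiment 2 WT and 14.5 to 49.5 CPM in WT-NTD. The lungs did not share this: there Bmp4 was at 75.2 to 113 CPM while Msx1 stayed at 0.766 to 2.42 CPM.

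Msx1 also ran with the macrophage markers over the 21 libraries (r = 0.79 overall and 0.71 within groups, mean log2 CPM of 11 genes), as did Alx4 (0.72 and 0.60). The part of macrophages in the Msx1 differences was not tested.

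**Figure D4:**
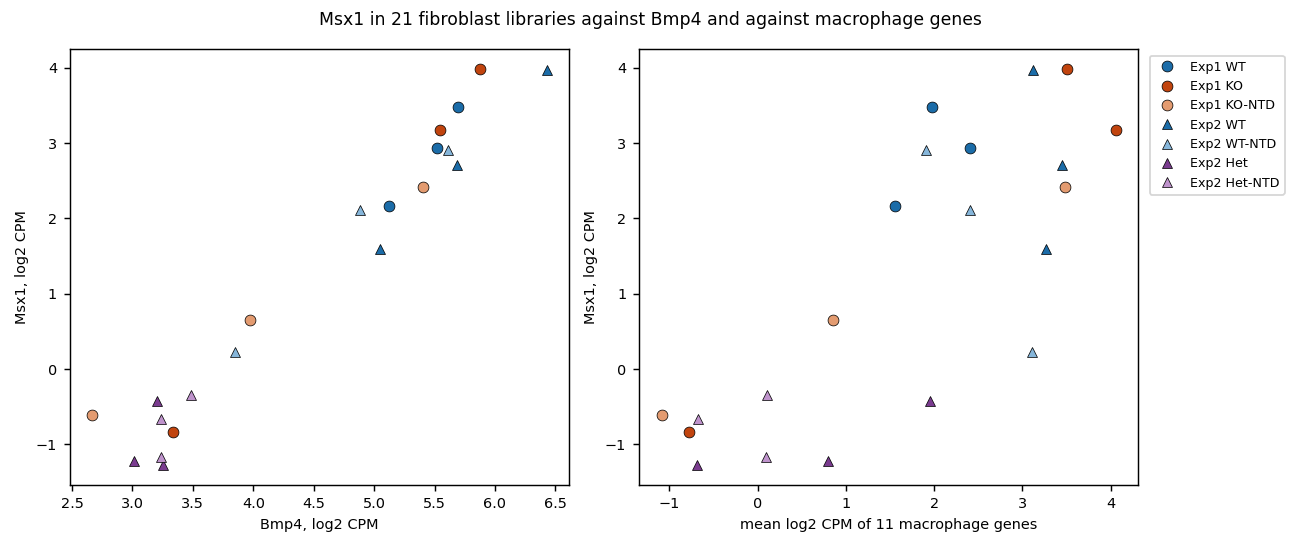
Msx1 (log2 CPM) in each of 21 fibroblast libraries against Bmp4 (log2 CPM, left) and against the mean log2 CPM of 11 macrophage genes (right). Circles are experiment 1, triangles experiment 2, and colours the groups. The points lie near a line for Bmp4 (r = 0.98) and scatter more for the macrophage genes (r = 0.79).

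The genes most like the others were named by the same rule. Alx4 was most like Limch1, Ptprd and Fras1 (r from 0.94 to 0.95), and Fras1 is an extracellular matrix gene of skin and limb development. Zic2 was most like Arhgap36 (0.94), Zic5 (0.93), which lies near it in the genome and is a zinc finger factor of the same family, and Foxd1 (0.91). Dlx5 was most like Dlx6os1 (0.90), a transcript of the Dlx5 and Dlx6 locus, Vit (0.88) and Dlx1as (0.86). Dlx6os1 and Dlx1as had few counts: in KO they were at 0 to 0.339 CPM and 0 to 1.14 CPM. In KO-NTD Dlx6os1 was at 0 and Dlx1as at 0 to 0.0428 CPM, so their r includes libraries at or near 0 counts. Msx2 was most like Plxna2, Gxylt2 and Osbpl3 (0.91 each), and Pax3 most like Lhx8 (0.85), a homeodomain factor of the jaw and forebrain, then AI606473 and Proser2 (0.76 each). Pax9 was most like Slc7a2 (0.80), Rnase10 (0.79) and Meox2 (0.78), Alx1 like S1pr1 (0.80), Cnksr1 (0.78) and Myb (0.75), and Zic1 like Pygm (0.74), E030011O05Rik (0.69) and Rassf3 (0.69).

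Lists of related genes were read in Het-NTD against WT-NTD, where all calls below are by edgeR at an adjusted p of 0.05 and stand against 11.5% of all genes called there (6.24% lower). Of 17 related homeobox genes tested, 2 fell, among them Dlx2 (log2 fold change -1.09), a relative of Dlx5, and 2 rose, among them Shox2 (0.46), a limb homeodomain factor. Of 25 cranial mesenchyme factors, 1 fell, Tfap2b (-3.77, from 2.86 to 0.207 CPM), a neural crest factor. The median log2 fold change of these lists was 0.18 and 0.06.

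Of 23 limb mesenchyme genes 3 rose and 3 fell, with Grem1 (0.95), a BMP antagonist, and Tbx18 (0.72) higher, and Fgf10 (-0.76), a growth factor of limb outgrowth, and Gli2 (-0.49), a hedgehog effector, lower. The median was -0.12. Of 20 BMP pathway genes 4 fell and 0 rose: the ligands Bmp4 (-1.64) and Bmp2 (-1.29), the antagonist Noggin (Nog, -1.41) and the decoy receptor Bambi (-0.28), with a median of -0.12. Of 10 osteoblast genes 3 rose, among them Runx2 (0.29), the master factor of bone formation, and Spp1 (1.29), and 0 fell, with a median of 0.10. Of 37 Hox genes tested 0 passed, with a median of 0.02. In KO against WT, in KO-NTD against KO and in lung, 0 genes of any of these lists passed, where 0.447%, 0.00687% and 0% of all genes did.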

How the data were processed

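RNA was sequenced from 21 fibroblast and 6 lung libraries. The authors deposited raw read counts per gene symbol. Reads were processed with TopHat2 2.0.14, Bowtie2 2.2.6 and featureCounts 1.4.6 on mm10, per the submitters' processing notes. The library kit, fed with about 200 ng of RNA, keeps no strand information, as its name in the labels' protocols shows. The annotation used for counting is not given in the sources used here. Positions and exon lengths are from GENCODE M21 (GRCm38) and promoter letters from RefSeq.

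In R 4.3.3, edgeR 4.0.16 was run separately on experiment 1, experiment 2 and lung (filterByExpr by group, TMM scaling, robust quasi-likelihood test). Its p-values are two-sided and adjusted by Benjamini and Hochberg's method over the 14551, 14314 and 15933 genes tested, with a threshold of 0.05. CPM values use those TMM scales, and ranges over all fibroblasts use TMM over 27 libraries. Likeness is Pearson r of log2 CPM (prior count 2, TMM over 21 libraries). The genes named are the 9 genes, up to 4 called genes with the lowest p of each list, the 3 genes most like each of the 9 and their nearest neighbours; some named by this rule are not reported here. The members, lists and markers were chosen with earlier results of these data known. Alternatives were RLE scaling, 2 other filters on low counts, DESeq2 1.42.0, a replicate block, a fit of the groups compared alone and leaving out each library. The closest pair of replicates differed by more than counting noise, so no library was treated as deposited in duplicate, and whether libraries share a culture or embryo is not known. Exact permutation of 3 against 3 libraries cannot pass the threshold and was not used.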

Additional observations from a re-analysis of the deposited data

How the results depend on the processing

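In the 4 comparisons tested, the alternatives gave 357 fitted log2 differences of the 9 genes, of which 323 kept direction and side of the threshold, 7 fell short of it, 5 crossed it and 22 turned sign. None of the signs that turned belonged to a call. In the 3 comparisons that are only described they gave 324, of which 303 kept direction and moved by less than their SE. The sign turned in 12, whatever the size of the move, for Pax3, Pax9, Zic1 and Zic2. Those in Het against WT were Pax3 (-1.20 to 0.56), Pax9 (-0.58 to 0.65) and Zic2 (-0.26 to 0.52). DESeq2 called 3 of the 9 genes in Het-NTD against WT-NTD, Msx2 being the added one, 2 in KO against WT, 1 in KO-NTD against KO and 4 in Het against WT of experiment 2. Among all genes it called 2086, 449, 26 and 2869 in these comparisons, in that order. Without a filter on low counts 1 was called in Het-NTD against WT-NTD. Leaving out single libraries gave 1 to 2 there and 2 to 5 in Het against WT, where the 5 came without WT replicate 1 and nothing is read from the counts. The cause was not tested.

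The sign turned for Alx1 in KO-NTD against KO with DESeq2 (0.0002697) and with the replicate block (0.011), and for Msx1 in KO against WT with the replicate block (-0.20). Leaving out libraries gave ranges holding 0 in KO against WT for Alx1 (-0.43 to 0.20), Dlx5 (-0.55 to 0.76) and Msx1 (-0.67 to 0.70). They did so in KO-NTD against KO for Alx1 (-0.26 to 0.27) and Zic1 (-0.31 to 0.01), and in lung for Alx4 (-0.42 to 0.31) and Msx1 (-0.51 to 0.047). In Het-NTD against WT-NTD they did so for Pax3 (-0.42 to 0.59), Pax9 (-0.12 to 0.64), Zic1 (-0.086 to 0.073) and Zic2 (-0.052 to 1.17).

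Same-numbered libraries did not all deviate together. Their r was -0.48 to 0.61 in experiment 1, with 5 of 9 pairs over 0.1. It was -0.21 to 0.45 in experiment 2, with 6 of 18, and -0.34 to 0.12 in lung, with 1 of 3. For WT with WT-NTD in experiment 2 every r was above 0 (0.24, 0.45 and 0.07). These values cannot settle whether the numbers pair the libraries, and the main fits did not pair them. The replicate block gave 2 of the 9 genes in Het-NTD against WT-NTD and 0 in each of the other comparisons tested, as without it.

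Over all genes, KO against WT called 65 genes, 449 with DESeq2, 36 with those groups alone and 24 to 142 without single libraries (24 without KO replicate 2 and 142 without KO replicate 1). KO-NTD against KO called 1 gene, 2 without a filter, 26 with DESeq2 and 29 without KO replicate 1. Het-NTD against WT-NTD called 1643, against 739, 811 and 1022 without Het-NTD replicate 1, 2 and 3 and 1016 and 1011 without WT-NTD replicate 2 and 3. Het against WT called 2362, 1389 with those groups alone and 1304, 1534 and 1565 without Het replicate 3, Het replicate 2 and WT replicate 2. WT-NTD against WT called 2, and 1 to 119 over the alternatives (119 without WT replicate 1). Het-NTD against Het called 2, and 1 to 23 (23 with DESeq2). Lung called 0, and 1 with DESeq2.

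Low counts limit Alx1, Dlx5 and Pax3 in fibroblasts and 6 of the 9 genes in lung, where differences were not detectable at this depth. With Spearman's rho in place of Pearson's r, 1 to 2 of the 3 most like genes remained for 8 of the 9, all 3 remained for Zic2, and Axin2 (rho 0.96) led for Msx1.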

Other observations

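The nearest genes of the count table that do not overlap the 9 genes were read as well, so Zic4, which overlaps Zic1, was passed over. In Het-NTD against WT-NTD, Stx18, 214159 bp from Msx1 on the right, stood at a log2 fold change of -0.01 (SE 0.10, edgeR adjusted p = 0.953), with means of 22.5 and 22.7 CPM. Accs, 152128 bp from Alx4 on the right, stood at 0.13 (SE 0.13, edgeR adjusted p = 0.583). Tbc1d2b, 1087254 bp from Zic1, rose by 0.37 (SE 0.06, edgeR adjusted p = 0.00144), from 71.9 to 93.0 CPM. Epha4, an ephrin receptor gene 586179 bp from Pax3, fell by 0.56 on the log2 scale (SE 0.12, edgeR adjusted p = 0.012), from 27.2 to 18.4 CPM.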
